A study of Mus musculus with 8 samples.

Results

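The genes described here build microtubules or act on them: the alpha-tubulins Tuba1a, Tuba1b and Tuba1c, the beta-tubulins Tubb2a, Tubb2b, Tubb3, Tubb5 and Tubb6, the tubulin-sequestering protein stathmin (Stmn1) and Capn6, a calpain family member that binds microtubules. They were taken by name, with every probe that the platform annotation gives them. Of the 10 genes 9 had a probe, 15 probes in all among 25697 on the array; no value is given for Tuba1c. The samples were developing white adipose tissue of C57BL/6 mice at e15.5, e16.5, e17.5, e18.5, P0, P2, P5 and P12, with no treatment or mutation named. Each stage was a single pool of animals on 1 array, of at least 3 animals by one label and 4 by another. The sources used here name neither the depot nor the number of litters. Values are log2 intensities as deposited, and a probe was tested where it reached 7.5, a level just above the floor of the scale, on at least 2 of the 8 arrays. Of the 15 probes 8 did so, from 6 genes: Tuba1a, Tuba1b, Tubb2b (3 probes), Tubb5, Tubb6 and Capn6.

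Microtubules are hollow polymers of alpha- and beta-tubulin dimers. They form the mitotic spindle of dividing cells and the tracks for transport in cells that do not divide. Mammals carry several genes for each subunit; Tubb3 is known as a neuronal form, Tuba1b and Tubb5 are made in most tissues, and Tuba1a and Tubb2b are abundant in the developing nervous system. Stathmin binds free dimers and favours disassembly. In the differentiation of fat cells in culture the fibroblast-like precursor rounds up, and its actin and tubulin content is known to fall.

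Levels of tissue marker genes changed along the series. Of 12 adipocyte markers 11 were tested; their mean stood at 8.26 on the e15.5 array, 11.36 by e18.5 and 11.92 by P12; 9 rose over stage, and Plin1, a coat protein of the lipid droplet, was at 6.83 at e15.5. Skeletal muscle genes (15 tested) had means of 7.54 to 8.94 outside e15.5 (12.50) and P0 (11.11); 1 of the 15 fell over stage. Epidermal genes (9 tested) had means of 7.15 to 9.21 outside those arrays, with 11.53 on the first and 10.60 on the P0 array. The 15 tested proliferation markers averaged 10.09, 10.29, 9.84, 8.98, 8.48, 8.99, 8.39 and 8.10 from e15.5 to P12. In such pools fewer cells of a type and less RNA per cell cannot be told apart.

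Tuba1a and Tuba1b encode near-identical alpha-tubulins. Their levels were lower at each of the 4 steps from e15.5 to P0 and stood higher again at P2. Tuba1a (ILMN_2916705) was 11.85 at e15.5, 11.51 at e16.5, 11.13 at e17.5, 10.46 at e18.5, 10.12 at P0, 12.21 at P2, 11.56 at P5, with 10.47 at P12. The highest array of the series was thus P2 and the lowest P0, the stage before it. Tuba1b (ILMN_2986393) was 14.73 at e15.5, 14.62 at e16.5, 14.25 at e17.5, 13.80 at e18.5, 13.74 at P0, 14.62 at P2, 14.28 at P5, with 13.56 at P12. Its P2 level stood beside that of e16.5. Neither gene passed the fit of a line through the 8 stages: the slope of Tuba1a was -0.08 log2 per stage (SE 0.10, limma adjusted p = 0.573) and that of Tuba1b -0.11 (SE 0.05, limma adjusted p = 0.151). Without the P2 array the slopes were -0.13 for Tuba1a (limma adjusted p = 0.268) and -0.13 for Tuba1b (limma adjusted p = 0.0628). Tuba1a, Tuba1b and Tuba1c have near-identical copies of the coding sequence, and probe sequences were not used here, so signal shared between them was not tested.

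Tubb5, the beta-tubulin of most dividing cells, ran alongside the alpha-tubulins. Its bright probe (ILMN_1227164) was 14.22 at e15.5, 14.38 at e16.5, 13.98 at e17.5, 13.61 at e18.5, 13.21 at P0, 14.12 at P2, 13.49 at P5, with 13.14 at P12. The levels at e15.5 and e16.5 were the 2 highest, and P2 was the third. Tubb5 fell by 0.14 log2 per stage (SE 0.05, limma adjusted p = 0.0404), 2.12-fold between e15.5 and P12. The call was lost without e15.5 (limma adjusted p = 0.0957), e16.5 (0.114), e17.5 (0.0670), P5 (0.0744) or P12 (0.158). Its other probe (ILMN_1217584) stayed between 6.75 and 6.85 and was not tested.

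A higher level at P2 than at P0, followed by 2 lower stages, was counted over the whole table. Of the 9387 tested probes 1.9% were at least 0.5 log2 higher at P2 than at P0 and then lower at P5 and lower again at P12. Of the 8 probes described here 4 had this shape, those of Tuba1a, Tuba1b and Tubb5 and the Tubb2b probe ILMN_2588051. Tubb6 ran the same way, but its gain of 0.47 log2 from P0 to P2 fell short of the cut. The shape follows the courses described above and was not among the planned comparisons, so the count describes these probes and tests nothing. The proliferation marker mean was also higher at P2 (8.99) than at P0 (8.48) and P5 (8.39), while the muscle mean was 8.32 at P2 and 11.11 at P0; their part in the P2 values was not tested.

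The sequences before the start sites of Tuba1a, Tuba1b and Tubb5, which had this shape, and of Capn6, which was lower at P2 than at P0, are shown because these genes differed in direction at that step. RefSeq (GRCm38.p6) gave promoters for 7 of the 10 genes: Tuba1a, Tuba1b, Tuba1c, Tubb2a, Tubb3, Tubb5 and Capn6; none is shown for Tubb2b, the fourth gene with a probe of this shape. Each run is the 250 bases upstream of the annotated start, 5′ to 3′ on the gene's strand, which is the minus strand for all 4. The windows are chr15:98953502-98953751 for Tuba1a, chr15:98934391-98934640 for Tuba1b, chr17:35838302-35838551 for Tubb5 and chrX:143827413-143827662 for Capn6. Capitals mark matches on either strand to CCAAT (the CCAAT box), GGGCGG (the GC box) or TATAAA (the TATA box); no match overlapped another.
Tuba1a: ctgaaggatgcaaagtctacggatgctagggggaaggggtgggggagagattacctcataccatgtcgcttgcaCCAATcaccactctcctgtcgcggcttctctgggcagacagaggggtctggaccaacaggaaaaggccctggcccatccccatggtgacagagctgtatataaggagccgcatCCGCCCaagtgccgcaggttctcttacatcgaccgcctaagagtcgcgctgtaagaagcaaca
Tuba1b: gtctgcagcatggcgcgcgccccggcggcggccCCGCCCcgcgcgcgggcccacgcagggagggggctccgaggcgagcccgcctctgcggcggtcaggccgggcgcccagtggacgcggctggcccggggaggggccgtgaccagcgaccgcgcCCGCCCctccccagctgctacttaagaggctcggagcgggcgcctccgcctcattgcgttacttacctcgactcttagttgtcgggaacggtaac
Tubb5: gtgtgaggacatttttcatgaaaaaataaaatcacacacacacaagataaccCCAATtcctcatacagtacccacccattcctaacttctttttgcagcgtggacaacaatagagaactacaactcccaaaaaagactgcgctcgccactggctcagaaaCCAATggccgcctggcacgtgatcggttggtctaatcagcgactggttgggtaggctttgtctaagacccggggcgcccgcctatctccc
Capn6: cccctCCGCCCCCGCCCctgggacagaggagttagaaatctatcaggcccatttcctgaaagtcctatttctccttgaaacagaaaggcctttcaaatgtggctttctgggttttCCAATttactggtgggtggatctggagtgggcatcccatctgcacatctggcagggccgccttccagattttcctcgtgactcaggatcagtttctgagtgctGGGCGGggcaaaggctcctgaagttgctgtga
CCAAT was found 2 times in the Tubb5 window, 1 time each in those of Tuba1a and Capn6 and not in that of Tuba1b. GGGCGG was found 3 times for Capn6, 2 times for Tuba1b and 1 time for Tuba1a, and TATAAA in none of these 4. Over all 32851 promoter windows of this length 33.8% held CCAAT, 32.7% GGGCGG and 12.4% TATAAA. The matches describe letters in these windows and are not shown to be sites of any factor.

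Tubb2b, a beta-tubulin gene, had 6 probes, and they did not all report the same course. The brightest (ILMN_1377919) was 13.74 at e15.5, 12.50 at e16.5, 11.90 at e17.5, 11.16 at e18.5, 11.10 at P0, 10.93 at P2, 10.09 at P5, with 10.05 at P12. It was lower at each of the 7 steps, and all 4 postnatal arrays lay below all 4 embryonic ones. It fell by 0.49 log2 per stage (SE 0.05, limma adjusted p = 0.00102), 12.9-fold between e15.5 and P12, and had an adjusted p of 0.00543 or less in limma without any single array. With the muscle or the epidermal marker mean as a covariate its limma adjusted p was 0.00549 and 0.00588.

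The second Tubb2b probe (ILMN_2588051) was 11.13 at e15.5, 10.01 at e16.5, 9.89 at e17.5, 9.48 at e18.5, 9.29 at P0, 9.96 at P2, 9.42 at P5, with 9.18 at P12. It shared the drop from e15.5 to e16.5 with the brightest probe but was higher at P2 than at P0, where the brightest was lower. It fell by 0.20 log2 per stage (SE 0.06, limma adjusted p = 0.0268), and the call was lost without e15.5 (limma adjusted p = 0.120), P5 (0.0514) or P12 (0.0772). The third (ILMN_2825574) was 8.60 at e15.5 and 7.68 at e16.5 and stayed between 7.09 and 7.39 from e17.5 on. It entered the test through those first 2 arrays only, so its fall of 0.16 log2 per stage (SE 0.04, limma adjusted p = 0.0223) is part of how it passed the filter. Without P5 its limma adjusted p was 0.0506. With the muscle marker mean as a covariate the second probe had a limma adjusted p = 0.166 and the third 0.162.

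Of the remaining Tubb2b probes ILMN_1221835 reached 8.21 and ILMN_2598715 reached 7.75 at e15.5, both were at most 7.47 on the other 7 arrays, and ILMN_1229800 ranged from 6.78 to 6.85. Thus 5 of the 6 probes had their highest value at e15.5. The drop from e15.5 to P12 was 3.69 log2 on the brightest and 1.95 on the second, and on the third the P12 level was at least 2.14-fold lower. The sequences of Tubb2a and Tubb2b are near-identical too, and signal shared between them was not tested. The 3 tested probes are not separate evidence on the gene, since they read the same pools.

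Tubb6, a beta-tubulin of many non-neuronal tissues, was 11.47 at e15.5, 10.57 at e16.5, 10.25 at e17.5, 10.16 at e18.5, 9.64 at P0, 10.11 at P2, 9.76 at P5, with 9.75 at P12 (ILMN_2718217). The e15.5 array stood highest, and the postnatal arrays all lay below the embryonic ones. Tubb6 fell by 0.20 log2 per stage (SE 0.05, limma adjusted p = 0.0126), 3.29-fold between e15.5 and P12. It kept its call without any single array, while the slope without e15.5 was -0.12 (limma adjusted p = 0.0424). With the muscle marker mean as a covariate the slope was -0.18 (SE 0.06, limma adjusted p = 0.0762), and with the epidermal mean -0.18 (SE 0.06, limma adjusted p = 0.0691). The part of either tissue in the Tubb6 values was not tested further.

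Capn6 showed the steepest decline of the 8 tested probes and the one nearest a straight line. In mice Capn6 lacks the catalytic cysteine of other calpains and is known as an embryonic protein that stabilizes microtubules. Its probe (ILMN_2695143) was 11.78 at e15.5, 10.09 at e16.5, 9.71 at e17.5, 9.21 at e18.5, 9.16 at P0, 8.21 at P2, 7.43 at P5, with 6.97 at P12. Every step was downward, a pattern held by 35 of the 9387 tested probes (0.373%), the brightest Tubb2b probe among them. P5 and P12 lay below 7.5, so the level at P12 was at least 19.4-fold lower than at e15.5. The slope was -0.61 log2 per stage (SE 0.05, limma adjusted p = 0.000414), at the 0.192 percentile of slopes over all tested probes. The straight line took up 94.8% of the variance of Capn6 and 91.6% of that of the brightest Tubb2b probe, against 55.1% for Tubb5, 32.7% for Tuba1b and 6.39% for Tuba1a. With the muscle or the epidermal mean as a covariate Capn6 kept its call (limma adjusted p = 0.00150 and 0.00211), and without e15.5 and P0 its slope was -0.53 (limma adjusted p = 0.00109).

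**Figure D1:**
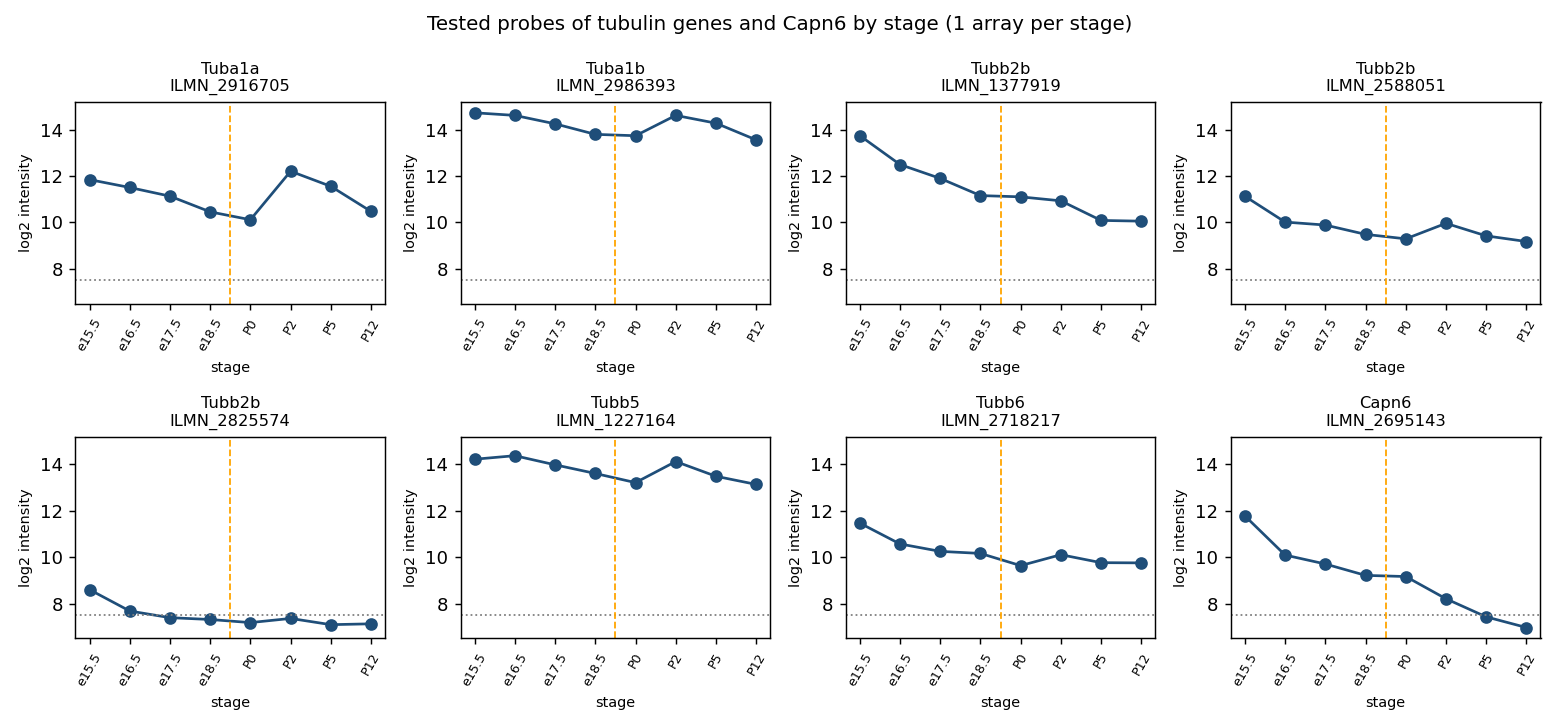
Log2 intensity (vertical axis) of the 8 tested probes at the 8 stages (horizontal axis), 1 array per point. The dotted line marks 7.5 and the dashed line lies between e18.5 and P0. Tuba1a, Tuba1b and Tubb5 stand at 12.21, 14.62 and 14.12 at P2, while Capn6 runs down to 6.97 at P12.

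The members with no tested probe stayed near the floor. The single Stmn1 probe (ILMN_1248132) was 7.08 at e15.5, between 6.84 and 7.02 from e16.5 to P5 and 6.83 at P12, so the array gave no usable level for stathmin. Tubb2a (ILMN_2485044) ranged from 6.80 to 6.90 and Tubb3 (ILMN_1252657) from 6.81 to 6.91 over the 8 arrays. Of 14 neuron markers 12 did not reach 7.5 on 2 arrays either. The 2 that did, Gap43 and Dpysl3, both fell over stage (limma adjusted p = 0.00172 and 0.00215) and averaged 7.43 at P12 and 8.74 at e15.5; nerve signal in the levels of Tuba1a and Tubb2b was not tested.

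In the fit over stage 6 of the 8 tested probes, from 4 genes, fell and 0 rose. Over all 9387 tested probes 20.2% fell and 19.3% rose by the same rule. By the highest-mean probe of each gene the median slope was -0.17 log2 per stage for the 6 genes and -0.00 for all features. Of the 8, Tubb2b ILMN_2825574 reached 7.5 at e15.5 and e16.5 only, so its fall is part of how it entered the test. Capn6 reached 7.5 on 6 arrays, e15.5 to P2, and not at P5 and P12, so it too passed the filter through the earlier arrays. No probe of the group rose at an unadjusted p under 0.05 either, against 24.4% of all tested probes. The curvature test, which asks whether the middle stages lay off a straight line, called 0 of the 8 probes in limma. At an unadjusted p under 0.05 it marked 3 as lowest in the middle, the brightest and the third Tubb2b probes and Tubb6, as it did 9.02% of all tested probes. After adjustment 0.16% of all were lowest and 0.511% highest in the middle. The count of falling probes was 3 without e15.5, 3 without P5, 2 with the muscle and 2 with the epidermal mean as a covariate. Of all tested probes 16.3%, 16.3%, 13.4% and 12.8% fell in these fits, and without e15.5 only 7 of the 8 were tested. The 2 that kept their calls with either mean were the brightest Tubb2b probe and Capn6. With the proliferation mean as a covariate, 86.4% of whose variance lay on the stage line, 0 of the 8 and 0 of all 9387 probes passed in limma in either direction, while 2 of the 8 and 317 of all fell at an unadjusted p under 0.05. P-values here measure the spread of single pools around a line.

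**Figure D2:**
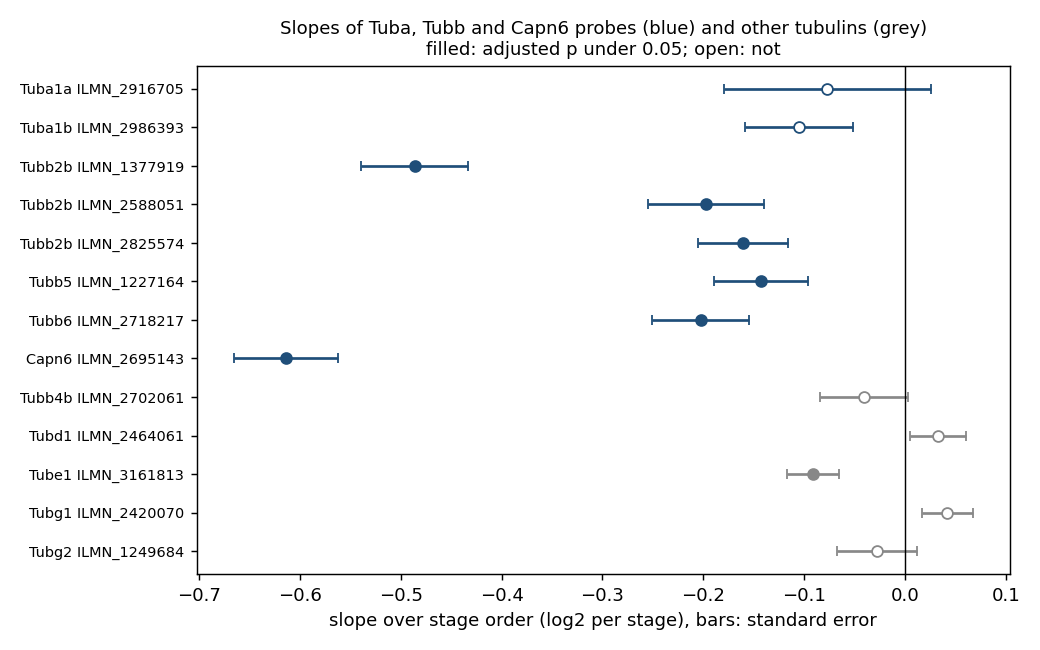
Slope over stage order in log2 per stage (horizontal axis) for the 8 tested probes in blue and 5 other tubulin genes in grey. Points are limma estimates from 8 arrays and bars are standard errors; filled points had an adjusted p under 0.05. Capn6 at -0.61 and Tubb2b ILMN_1377919 at -0.49 stand apart from the rest.

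The pace of change was read from neighbouring stages, which have no replicate and no test. From e15.5 to e16.5 7 of the 8 probes were lower, as were 35.8% of all tested probes. Of the 8, 3 were lower by 2-fold or more: Capn6 (-1.69 log2) and the Tubb2b probes ILMN_1377919 (-1.25) and ILMN_2588051 (-1.11). Of all tested probes 3.27% dropped that far in this step, in which the muscle mean was 8.94 at e16.5 and 12.50 at e15.5; its part in these drops was not tested. All 8 probes were lower at each of the next 3 steps, e16.5 to e17.5, e17.5 to e18.5 and e18.5 to P0; 1547 of all 9387 tested probes were. From e15.5 to P0 7 of the 8, all but Tubb5, were lower at each of 4 steps, against 3.88% of all. None of these drops between e16.5 and P0 reached 2-fold, where 0.501%, 0.394% and 1.44% of all tested probes did in turn. From e18.5 to P0 the muscle mean went from 7.68 to 11.11 and the epidermal mean from 7.58 to 10.60. The part of either tissue in this step was not tested.

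From P0 to P2 the probes parted. In this step 6 probes were higher and 2 lower, while 52.9% of all tested probes were higher and 47.0% lower. Tuba1a was at 2.09 log2, or 4.26-fold, Tubb5 at 0.91 and Tuba1b at 0.88, against -0.96 for Capn6 and -0.17 for Tubb2b ILMN_1377919. Of all tested probes 0.81% gained 2-fold or more in this step, and the Tuba1a value lay at the 99.9 percentile of all tested probes in it. From P2 to P5 all 8 were lower, by 0.27 to 0.85 log2, as were 50.5% of all tested probes by any amount. From P5 to P12 7 were lower, as were 53.9% of all. Tuba1a lost 1.08 log2 in this step, a drop of 2-fold or more that 0.682% of tested probes shared.

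**Figure D3:**
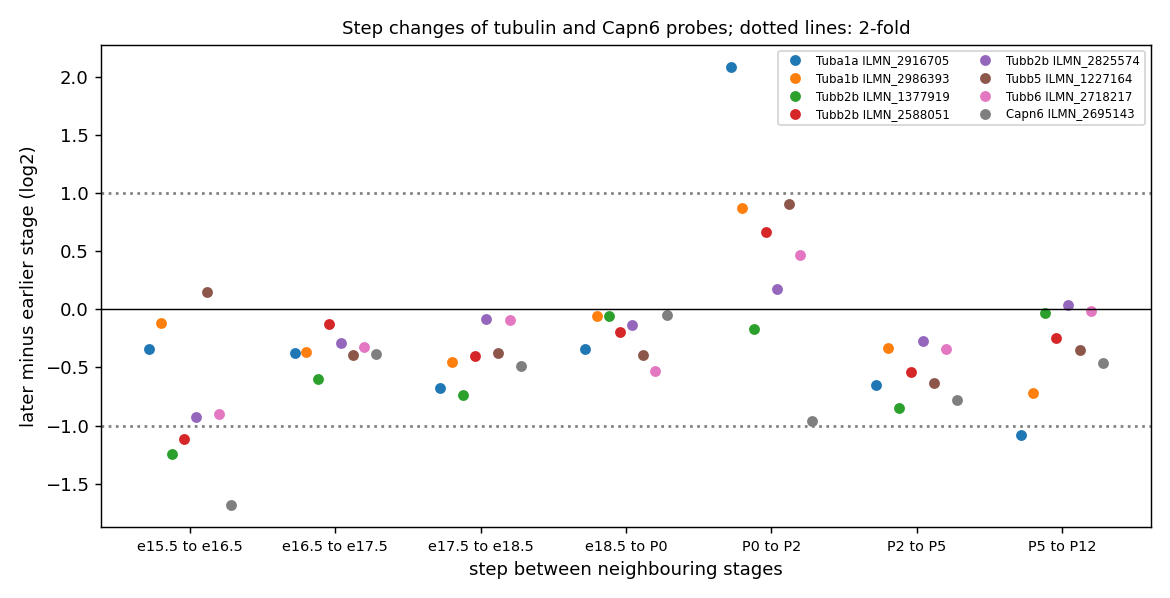
Difference between the later and the earlier of neighbouring stages in log2 (vertical axis) for each of the 7 steps (horizontal axis), 1 point per probe. Dotted lines mark 2-fold. Points lie below 0 in most steps, and at P0 to P2 they spread from -0.96 (Capn6) to 2.09 (Tuba1a).

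Set against the embryonic arrays as a period, the postnatal ones gave lower means for all 8 probes, but no difference passed. The smallest of these differences, -0.15 for Tuba1a, lay at the 35.3 percentile of differences over all tested probes. The 4 arrays of a period are 4 ages with 1 pool each, so the SDs and SEs below include the change with age. Capn6 averaged 7.94 ± 0.96 on the postnatal arrays and 10.20 ± 1.11 on the embryonic ones (SD, n = 4 each), which is -2.26 on the log2 scale (SE 0.63, limma adjusted p = 0.0709). Tubb2b ILMN_1377919 averaged 10.54 ± 0.55 on postnatal and 12.32 ± 1.09 on embryonic arrays (SD, n = 4 each), a difference of -1.78 (SE 0.53, limma adjusted p = 0.0774). For Tubb6 the means were 9.81 ± 0.20 on postnatal and 10.61 ± 0.60 on embryonic arrays (SD, n = 4 each), a difference of -0.80 (SE 0.28, limma adjusted p = 0.101). On these 3 probes every postnatal array lay below every embryonic one, as on 10.4% of all tested probes; on none of the 8 did every postnatal array lie above, as on 8.72% of all.

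The other 5 overlapped. Tubb5 averaged 13.49 ± 0.45 on postnatal and 14.05 ± 0.33 on embryonic arrays (SD, n = 4 each; difference -0.56, SE 0.25, limma adjusted p = 0.159). Tuba1a averaged 11.09 ± 0.97 and Tuba1b 14.05 ± 0.49 on postnatal arrays, against 11.23 ± 0.60 for Tuba1a and 14.35 ± 0.42 for Tuba1b on embryonic arrays (SD, n = 4 each). Over all tested probes 0.0107% were called lower and 0.0107% higher after birth by limma; of the 8, 0 were called and 3 were lower at an unadjusted p under 0.05, as were 17.8% of all. In this test a jump at birth and a gradual course cannot be told apart. Without e18.5 3 of the 8 were called lower (Capn6, Tubb2b ILMN_1377919 and Tubb6, limma adjusted p = 0.0307, 0.0206 and 0.0477), as were 14.4% of all tested probes.

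**Figure D4:**
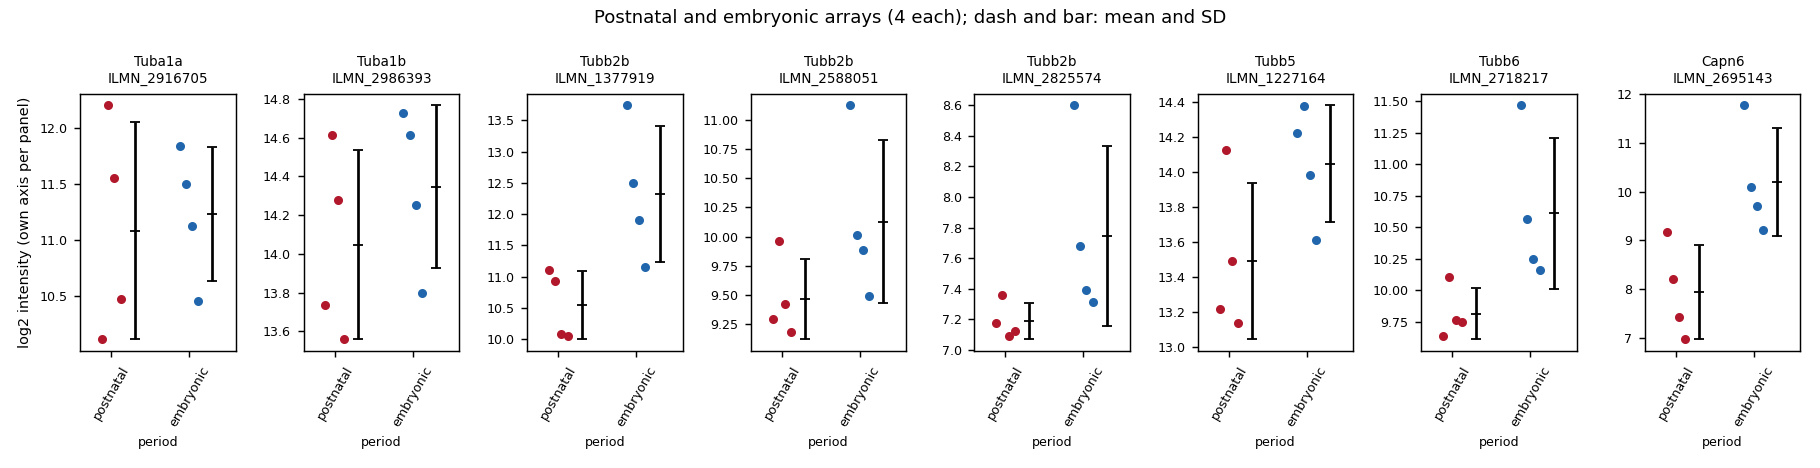
Log2 intensity (vertical axis, its own range in each panel) on the 4 postnatal arrays (red, left) and the 4 embryonic arrays (blue, right) for each tested probe; dashes and bars are means and SD. Capn6, Tubb2b ILMN_1377919 and Tubb6 show no overlap between the periods, and Tuba1a spans 10.12 to 12.21 after birth.

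Among themselves the genes differed in how closely they ran together. Over the 8 arrays, which share their pools, Pearson's r was 0.93 between Tuba1a and Tuba1b and 0.91 between Tuba1b and Tubb5. It was 0.98 between Capn6 and the brightest Tubb2b probe, and 0.23 between Capn6 and Tuba1a. With the other tested Tubb2b probes Capn6 had r = 0.83 (ILMN_2588051) and 0.86 (ILMN_2825574). Tubb5 was about as near to Tuba1a (0.77) as to the brightest Tubb2b probe (0.75) and Tubb6 (0.77). Tubb6 had r = 0.93 to the brightest Tubb2b probe and 0.53 to Tuba1a. The second Tubb2b probe had r = 0.81 to Tuba1b and 0.96 to Tubb6. These are descriptions over 8 points with no test.

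Among 2396 other named genes with a range of at least 1 log2, the 3 closest to Tuba1a by Pearson's r over the 8 arrays were Lgals1 (0.96), Cep41 (0.88) and Emp1 (0.86). Lgals1, which encodes galectin-1, was 13.60 at P2 and 12.37 at P0. Closest to Tuba1b were Mest (0.93), Cep41 (0.91) and Col6a2 (0.91), and Mest, an imprinted gene, was 11.63 at P2 and 9.16 at P0. Closest to Tubb5 were Anapc5 (0.97), Slc4a1 (0.96) and Calm3 (0.96). Slc4a1 encodes the anion exchanger of red cells; the 6 tested erythroid markers averaged 11.32 at e15.5, 9.26 at P0, 9.88 at P2 and 9.28 at P12, and their part in the Tubb5 values was not tested. Closest to the brightest Tubb2b probe were Ccn4 (0.99), Pdk3 (0.99) and Phc1 (0.99), to Tubb6 Sct (0.97), Aimp2 (0.96) and Nxn (0.96), and to Capn6 Neurl1a (0.98), Smn1 (0.98) and Lrig3 (0.98).

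Most of the other tubulin genes gave no level high enough to be tested. Of 12 other tubulin genes 11 had a probe, 5 were tested, 1 fell and 0 rose. Tubb4b, a widely made beta-tubulin, was 11.63 at e15.5, 10.99 at e16.5, 11.28 at e17.5, 10.89 at e18.5, 10.89 at P0, 11.55 at P2, 11.24 at P5, with 10.84 at P12. It too was higher at P2 than at P0, and its slope of -0.04 log2 per stage did not pass (SE 0.04, limma adjusted p = 0.474). Tube1, the epsilon-tubulin of centrioles, was 7.07 at P12 and 7.52 at e15.5 and fell by 0.09 per stage (SE 0.03, limma adjusted p = 0.0236). It reached 7.5 at e15.5 and e16.5 only, so this fall is part of how Tube1 entered the test. Tubg1, the main gamma-tubulin of microtubule nucleation, was 9.06 at P12 and 8.75 at e15.5 and did not pass (limma adjusted p = 0.214). Tubg2 and the delta-tubulin Tubd1 did not pass either (limma adjusted p = 0.599 and 0.376).

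Genes that act on microtubules were counted over lists, 1 probe per gene, against 20.9% falling among all 7446 features of that kind, of which 1381 rose. Of 9 tested spindle motor and assembly genes 8 fell and 0 rose. The steepest were Prc1, a bundler of the central spindle (-0.40 log2 per stage), the chromosome kinesin Kif22 (-0.37), Kif23 (-0.33) and Nusap1 (-0.29). Prc1 was 10.61 at e18.5, 9.21 at P0, 10.64 at P2 and 9.05 at P12, and Kif22 was 9.60, 8.43, 9.38 and 8.01 on those arrays, so both were higher at P2 than at P0. All 15 tested proliferation markers fell as well. Of the markers of other cells 4 of 6 erythroid genes fell, and 1 of 7 endothelial and 1 of 3 Schwann cell genes rose. Of 7 macrophage and mast cell genes the mast cell genes Cma1, Cpa3, Tpsb2 and Hdc fell, the macrophage genes Cd163 and Lyz2 rose and Adgre1 did not pass.

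Of 7 tested destabilising and severing genes 4 fell and 0 rose: the depolymerizing kinesins Kif2c (-0.32 log2 per stage), Kif18b (-0.22) and Kif2a (-0.08), and Fignl1 (-0.27). The severing genes Katna1, Spast and Fign did not pass (limma adjusted p = 0.785, 0.129 and 0.481). Kif18b lay below 7.5 at P0, P5 and P12, so its fall is part of how it entered the test. Kif2c was 7.25 at P12 and 9.27 at e15.5. The stathmin relatives Stmn2, Stmn3 and Stmn4 did not reach 7.5 on any array. Of 7 tested genes of the gamma-tubulin ring and augmin 3 fell, Haus8 (-0.18), Tubgcp2 (-0.14) and Haus6 (-0.09), and 0 rose.

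Of 12 tested genes of tubulin folding, which covers prefoldin, the chaperonin CCT and the tubulin cofactors, 5 fell and 1 rose. Cct3 (-0.21 log2 per stage), Cct6a (-0.17) and Tcp1 (-0.11) are chaperonin subunits and Pfdn4 (-0.14) is a prefoldin subunit. Cct3 was 10.18 at P12 and 11.42 at e15.5. Of 3 tested genes of tubulin modification Svbp, the partner of the vasohibin carboxypeptidases, fell by 0.19 per stage, and 0 rose.

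Microtubule-binding and plus-end proteins went both ways: 5 of 15 fell and 2 rose. Ckap5, a microtubule polymerase, fell by 0.16 log2 per stage and Map2 by 0.11, while Tppp, known as a promoter of tubulin polymerization, rose by 0.16 and Mtus1 by 0.15. Map2 reached 7.5 at e15.5, e16.5 and P0 only, and Map1b, which also fell, at e15.5, e16.5 and e17.5 only. Their falls are part of how they entered the test. Tppp lay below 7.5 at e15.5, e16.5 and e18.5, so its rise is part of how it entered the test. Of 21 tested transport motor genes 0 fell and 2 rose, the dynein light chains Dynlt3 (0.17 per stage) and Dynll2 (0.11). Dynll2 lay below 7.5 at e15.5, e16.5 and P0, so its rise too is part of how it entered the test. Of 5 tested calpain genes other than Capn6 0 fell and Capns1, the small subunit of the classical calpains, rose by 0.09. Capn2, a classical calpain, was 9.73 at P12 and 9.31 at e15.5 and did not pass (limma adjusted p = 0.0706).

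**Figure D5:**
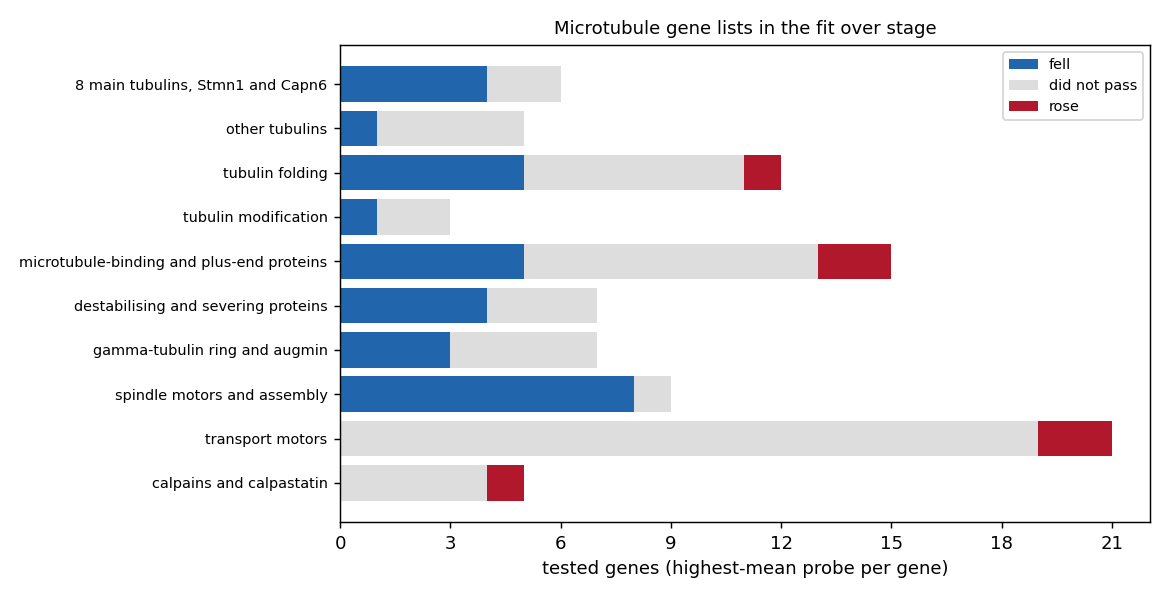
Number of tested genes (horizontal axis, highest-mean probe per gene) that fell, did not pass or rose over stage in limma, for the tubulins, Stmn1 and Capn6 and for 9 other lists (rows). Of the spindle list 8 of 9 genes fell, and of the transport motors 0 of 21.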

How the data were processed

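Per the labels' protocols, biotin-labelled amplified RNA of 1 pool per stage went onto Illumina MouseRef-8 BeadChips, read with BeadStudio. The authors deposited log2 values for 25697 probes on 8 arrays. The values ran from 6.66 to 15.10 with a median of 6.99, and the sorted values of the arrays differed by at most 0.00496, so the arrays share 1 distribution; the sources used here do not state the method or the background treatment. An unnormalized table with 16 per-sample columns was not used, because its sample numbers match no label. Gene names came from the platform annotation: 23978 probes had 1 symbol, 0 several and 1719 none. Precision is limited by the number of arrays, 1 per stage.

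Probes reaching 7.5 on at least 2 arrays (9387, with 8318 to 8324 above 7.5 per array) were tested with limma 3.58.1 in R 4.3.3. The fits were a slope over stage order (6 residual degrees of freedom), the postnatal minus the embryonic mean, and a quadratic term (5 residual degrees of freedom). Benjamini-Hochberg adjustment ran over all tested probes at a threshold of 0.05. The tests were checked on simulated data. All members are named, with up to 4 genes per other list by size of slope and any other tubulin with a tested probe. The 3 genes nearest each member by Pearson's r are named too. Capn2, Map1b, Katna1, Spast and Fign were named after their values were seen. The members and lists were chosen with earlier results of these data known. Alternatives were other filters, 1 probe per gene, other variance settings, array weights, age in days, marker means as covariates and leaving out arrays.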

Additional observations from a re-analysis of the deposited data

How the results depend on the processing

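The count of falling probes, 6 in the fit as reported, was 3 to 6 when each array was left out in turn, 3 without the e15.5 and P0 arrays, 2 without the P5 and P12 arrays, 2 with age in days (P0 as day 19), 2 with the muscle mean, 2 with the epidermal mean and 0 with the proliferation mean as a covariate. Of all probes 13.4% to 21% fell with 1 array left out, and 16.1%, 7.37%, 11.5%, 13.4%, 12.8% and 0% in those 6 fits in the same order. The count lower after birth, 0 as reported, was 0 to 3 with each array left out, 2 with array weights, 2 with the muscle and 2 with the epidermal mean, against 14%, 1.3% and 5.36% of all probes in these last 3. The 3 came without e18.5, where 14.4% of all were called. The counts rising, higher after birth and curved were 0 in every alternative run. With the proliferation mean as a covariate the slopes were 0.43 for Tuba1a, 0.15 for Tuba1b and 0.14 for Tubb5, and the postnatal minus embryonic differences 1.44 for Tuba1a, 0.76 for Tuba1b, 0.38 for Tubb2b ILMN_2588051, 0.073 for Tubb2b ILMN_2825574 and 0.40 for Tubb5, all against the reported sign. The Tuba1a difference was also positive with array weights (0.20), without e15.5 and P0 (0.38), and in leave-one-out (-0.52 to 0.18; 0.06 without e15.5, 0.18 without P0 and 0.06 without P12). The cause of these changes was not tested. Of the other single-probe slopes 114 kept direction and side of the threshold and 35 lost the call. No paired analysis was possible because each stage had 1 pool. With 1 array per stage no stage has an error of its own, and probes near 7.5 give bounds only.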
